A study of Mus musculus with 24 samples.

Results

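Postn, Acta2, Pdgfrb, Tgfbi, Vim and Pmp22 are 6 genes linked to mural cells and mesenchyme that were higher at 8 d than at 95 h in cells sorted from mouse embryoid bodies. They were chosen from that rise, so the rise itself is described below and not tested. A member was followed through the probes whose platform annotation names that gene and no other, which gave 9 of 20280 probes (4 for Vim, 1 for each of the others) and 6 of 8973 named genes. The ES cell line, strain, genotype, culture and any treatment are not given in the sources used here. Embryonic stem cells had been left to differentiate as embryoid bodies, and the dissociated cells were sorted by Flk1, the surface receptor for VEGF encoded by Kdr. This gave 6 groups of 4 arrays, Flk1+ and Flk1- cells at 84 h, 95 h and 8 d of differentiation. Each of the 24 two-colour Agilent mouse development arrays set 1 sample, in Cy5, against RNA of homogenised whole pups, in Cy3.

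Mural cells, the pericytes and vascular smooth muscle cells that wrap blood vessels, take part of their origin from mesoderm and mesenchyme, and platelet-derived growth factor from endothelium recruits them through the receptor Pdgfrb. They build a contractile apparatus around smooth muscle actin, encoded by Acta2, and lie in a secreted matrix. Postn (periostin) and Tgfbi are secreted matrix proteins of the fasciclin domain family that bind integrins, and Tgfbi takes its name from its induction by TGF-beta. Vim encodes vimentin, the intermediate filament of mesenchymal cells, and Pmp22 a small membrane protein best known from the myelin of peripheral nerve and also made in other tissues. Flk1 marks early mesoderm that gives rise to endothelium, blood and part of the mural lineage.

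Promoters are shown for Acta2 and Postn, the pair of members with the highest Pearson correlation over the arrays. Each is the 150 bases that end at the RefSeq start site (build GRCm38.p6), at chr19:34255374-34255523 on the minus strand for Acta2 and chr3:54360957-54361106 on the plus strand for Postn. Capitals mark, in Acta2, CArG boxes (the site that serum response factor binds) with 1 G or C inside the run of A and T, and in Postn the letters TATATAA, which overlap TATAAA there.
Acta2: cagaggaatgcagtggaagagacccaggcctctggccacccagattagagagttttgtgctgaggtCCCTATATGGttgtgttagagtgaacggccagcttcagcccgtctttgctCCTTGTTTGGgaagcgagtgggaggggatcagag
Postn: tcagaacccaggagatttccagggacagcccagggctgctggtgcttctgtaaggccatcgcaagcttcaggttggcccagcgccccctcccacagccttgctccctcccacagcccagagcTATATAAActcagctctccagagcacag
The search covered both strands of 300-base windows, from 250 bases before to 50 after the start, and the table held 9 windows of 5 members. The CArG form with 1 such base stood in the Acta2 window and in 1 of the 4 Pmp22 windows, against 8.5% of all 32851 promoter windows, and this form was added to the search after the Acta2 sequence had been read. The strict CArG box (1.63% of windows) was in no member's window. TATAAA (13.6% of windows) stood in a Postn and in the Vim window, and TATATAA (3.24%) in a Postn and in the Acta2 window. The TATATAA match lay at bases -28 to -22 in Postn. In Acta2 it lay at bases 9 to 15, after the start and outside the printed sequence. A match describes letters only and says nothing about binding in these cells.

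Values are log2 ratios of sample over pup RNA with each array's median set to 0, as read from the deposited table, whose log base and direction the sources used here do not state. A level below 0 means less than in pup RNA, and since each gene has its own pup level, the levels of different genes are not comparable, only their differences. The file holds no intensities, so it is unknown whether the lowest levels lay above background. Kdr, whose product was the sort marker, exceeded its Flk1- level in the Flk1+ sort by 1.91, 2.93 and 1.89 at 84 h, 95 h and 8 d. Arrays of a group correlated at 0.925 to 0.958 at 8 d. At 95 h they correlated at 0.751 to 0.855 in Flk1+ and 0.669 to 0.898 in Flk1- cells. The range was 0.59 to 0.966 at 84 h, where Flk1+ arrays 2 and 4 and Flk1- array 4 stood apart from the rest. The labels do not say that arrays of a group came from separate cultures, so the p-values cover only how far these samples differ from each other, and that may be technical. In sorted pools, more cells of a type and more RNA per cell cannot be told apart.

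From 95 h to 8 d the rises ran from 1.36 (Vim) to 5.87 (Postn) in Flk1+ cells and from 1.35 (Vim) to 5.54 (Postn) in Flk1- cells. The median over the 6 genes was 2.79 in Flk1+ and 2.99 in Flk1- cells, beside -0.012 and -0.034 over all 17440 features. For all 6 genes the 8 d arrays lay above the 95 h arrays of the same sort with no overlap. Of all features, 17.2% in Flk1+ and 13.8% in Flk1- cells were higher without overlap, and nothing is read from this for genes chosen by the rise. At 95 h the group means were at or below 0 for every member in both sorts, and at 8 d all lay above 0. The panels of levels by array show a steep last step for Postn, Acta2, Pdgfrb, Tgfbi and Vim in both sorts, and a more even climb for Pmp22 in Flk1+ cells.

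**Figure D1:**
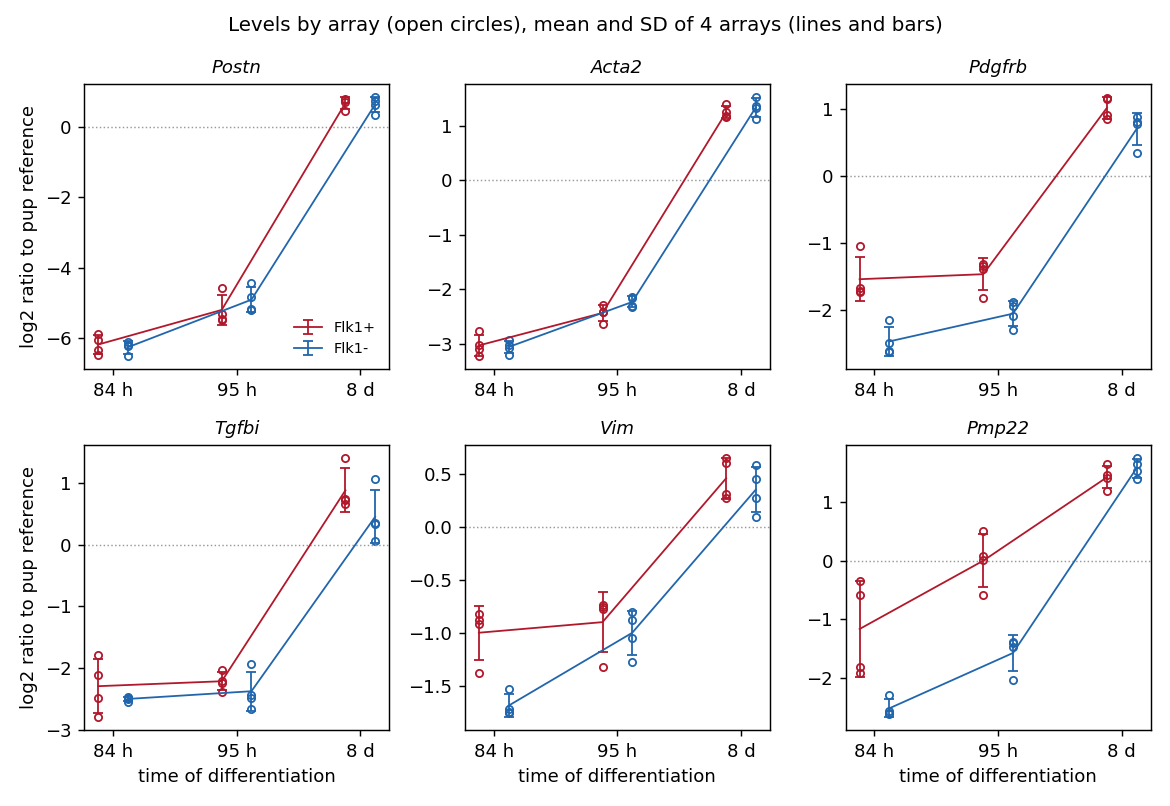
Log2 ratio to pup RNA (vertical axis) at 84 h, 95 h and 8 d (horizontal axis) for each of the 6 genes; open circles are the 4 arrays of a group, lines and bars the mean and SD, red Flk1+ and blue Flk1-. At 8 d the group means lie between 0.35 (Vim, Flk1-) and 1.58 (Pmp22, Flk1-), and Pmp22 is the gene whose sorts are farthest apart at 95 h.

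Of the secreted matrix genes, Postn rose most. In Flk1+ cells its 4 arrays read -5.87, -6.33, -6.04 and -6.48 at 84 h, -5.30, -4.57, -5.45 and -5.47 at 95 h, and 0.71, 0.75, 0.44 and 0.80 at 8 d. In Flk1- cells they read -6.23, -6.51, -6.19 and -6.10, then -4.82, -4.45, -5.17 and -5.19, and then 0.73, 0.86, 0.34 and 0.61. The 3 times were separate from each other in each sort, and the sorts overlapped at each time. At 95 h the Flk1+ array was lower in 4 of 4 pairs of the same number (differences of -0.48 to -0.12), and the mean difference of -0.29 was not called (adjusted p = 0.72, and 0.234 with the replicate block). The rise from 95 h was 58.6-fold in Flk1+ and 46.6-fold in Flk1- cells if the logs are to base 2, rank 1 among all features in each sort. Between 84 h and 95 h Postn had risen by 0.98 (SE 0.19, limma adjusted p = 0.00334) in Flk1+ and by 1.35 (adjusted p = 0.00162) in Flk1- cells. After quantile normalization, which makes the spread of all arrays alike, these early steps were 0.20 (adjusted p = 0.455) and 0.17 (adjusted p = 0.653). Postn lay at the lower end of all values at 84 h (lowest deposited value -6.42), and this normalization gives each rank the same value on every array. How far this set the smaller steps was not tested, and whether Postn rose early is not decided here. With those 3 outlying arrays of 84 h left out, the Flk1+ step also missed the threshold (0.76, adjusted p = 0.0608), as it did with array weights (0.69, adjusted p = 0.0732) and in a fit of the compared arrays alone (adjusted p = 0.189). The share of the whole increase from 84 h that came after 95 h was 85.6% in Flk1+ and 80.4% in Flk1- cells.

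Tgfbi, the other fasciclin protein, was flat until 95 h. Its Flk1+ arrays read -2.11, -1.78, -2.48 and -2.80 at 84 h, -2.38, -2.03, -2.24 and -2.20 at 95 h, and 1.41, 0.66, 0.74 and 0.72 at 8 d. Its Flk1- arrays read -2.46, -2.50, -2.55 and -2.49, then -1.93, -2.44, -2.66 and -2.48, and then 1.07, 0.34, 0.35 and 0.05. The 4 early groups lay close together, though the arrays of Flk1- cells at 84 h and of Flk1+ cells at 95 h did not overlap, and array 1 was the highest at 8 d in each sort. The rise from 95 h was 3.09 in Flk1+ and 2.83 in Flk1- cells (8.54-fold and 7.09-fold), and 97.5% and 95.8% of the increase from 84 h came after 95 h. The steps from 84 h to 95 h were 0.08 (adjusted p = 0.817) and 0.13 (adjusted p = 0.868). Flk1+ minus Flk1- was 0.21, 0.16 and 0.43 at the 3 times, with no call (adjusted p = 0.538, 0.948 and 1). Within arrays of the same number, which pair the sorts at 8 d, Flk1+ was higher in 4 of 4 pairs, by 0.34, 0.32, 0.39 and 0.66, and the replicate block gave an adjusted p = 0.461.

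Of the cytoskeletal genes, Acta2 ran close to Postn, with a Pearson correlation of 0.994 over the 24 arrays, the highest of the 15 pairs of members (0.855 to 0.994); the arrays share their time groups, so this is a description. Flk1+ arrays read -3.02, -3.10, -3.23 and -2.77 at 84 h, -2.41, -2.41, -2.28 and -2.63 at 95 h, and 1.18, 1.25, 1.17 and 1.41 at 8 d. Flk1- arrays read -3.21, -3.07, -3.03 and -2.94, then -2.31, -2.33, -2.15 and -2.14, and then 1.38, 1.54, 1.33 and 1.13. As for Postn, the times were separate and the sorts overlapped. The rise was 3.69 (12.9-fold, rank 6 of all features) in Flk1+ and 3.58 (11.9-fold, rank 2) in Flk1- cells. Acta2 had gained 0.60 by 95 h (SE 0.11, adjusted p = 0.00223) in Flk1+ and 0.83 (adjusted p = 0.00162) in Flk1- cells. The Flk1+ step was 0.17 (adjusted p = 0.393) after quantile normalization and had an adjusted p = 0.189 in a fit of those groups alone, while the Flk1- step kept its call under all 36 alternatives. The sorts differed by 0.03, -0.20 and -0.09, none of which was called (adjusted p = 0.873, 0.568 and 1). Within pairs of the same number at 95 h the Flk1+ array was lower in 4 of 4, with differences of -0.49 to -0.076 and an adjusted p = 0.455 with the replicate block.

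Vim rose least from 95 h, by 1.36 (2.56-fold) in Flk1+ and 1.35 (2.55-fold) in Flk1- cells, averaged over its 4 probes. Its Flk1+ arrays read -0.82, -1.37, -0.88 and -0.91 at 84 h, -0.73, -1.32, -0.77 and -0.76 at 95 h, and 0.61, 0.27, 0.32 and 0.65 at 8 d. Its Flk1- arrays read -1.71, -1.74, -1.75 and -1.52, then -1.27, -1.04, -0.88 and -0.80, and then 0.59, 0.45, 0.28 and 0.10. At 84 h every Flk1+ array lay above every Flk1- array, and from 95 h on the sorts overlapped. The difference at 84 h was 0.69 (SE 0.15, adjusted p = 0.00631), and it was 0.10 (adjusted p = 0.963) at 95 h and 0.11 (adjusted p = 1) at 8 d. Between 84 h and 95 h that difference moved by -0.59, with an adjusted p = 0.278 for the interaction. In Flk1- cells Vim rose by 0.69 between 84 h and 95 h (adjusted p = 0.0224), a call that was lost under 9 of 36 alternatives, 5 of them single arrays left out (Flk1- 95 h array 2 or 4, Flk1- 84 h array 1, 2 or 3; adjusted p 0.0534 to 0.0777).

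The 4 Vim probes did not move alike. Probes 1861, 15629 and 21342 correlated with each other at 0.944 to 0.984 over the 24 arrays and with probe 4017 at 0.428 to 0.515. Probe 4017 read 0.52, 0.31, 0.99 and 0.93 in Flk1+ cells at 84 h, already at its 8 d level of 1.10, 0.08, 0.45 and 0.35, with 0.56, -1.81, -0.33 and 0.28 at 95 h. In Flk1- cells it read -0.93, -0.58, -0.36 and -0.54 at 84 h and 0.92, 0.82, 0.55 and 0.30 at 8 d. The sort difference at 84 h was 1.29 (adjusted p = 0.0262) at probe 4017 and 0.74 (adjusted p = 0.0044) at probe 15629. It was 0.36 at each of probes 1861 and 21342, which were not called (adjusted p = 0.121 and 0.168). The difference of Vim between the sorts thus depended on the probe, and with the probe of the largest spread (21342) the gene had no call at 84 h, nor had it in a fit of the 84 h arrays alone (adjusted p = 0.0513). Without probe 4017, an alternative chosen after its values were seen, Vim rose between 84 h and 95 h in Flk1+ cells by 0.47 (adjusted p = 0.0215) where the mean of all 4 gave 0.10 (adjusted p = 0.667). From 95 h to 8 d the mean of each probe rose in both sorts, by 0.76 (probe 4017, Flk1-) to 1.76 (probe 21342, Flk1-). At probe 4017 the 95 h and 8 d arrays overlapped in both sorts, with Flk1- arrays at -0.75, -0.37, 0.44 and 0.22 at 95 h. The lack of overlap given for Vim thus holds for the mean of its probes and not for probe 4017.

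**Figure D2:**
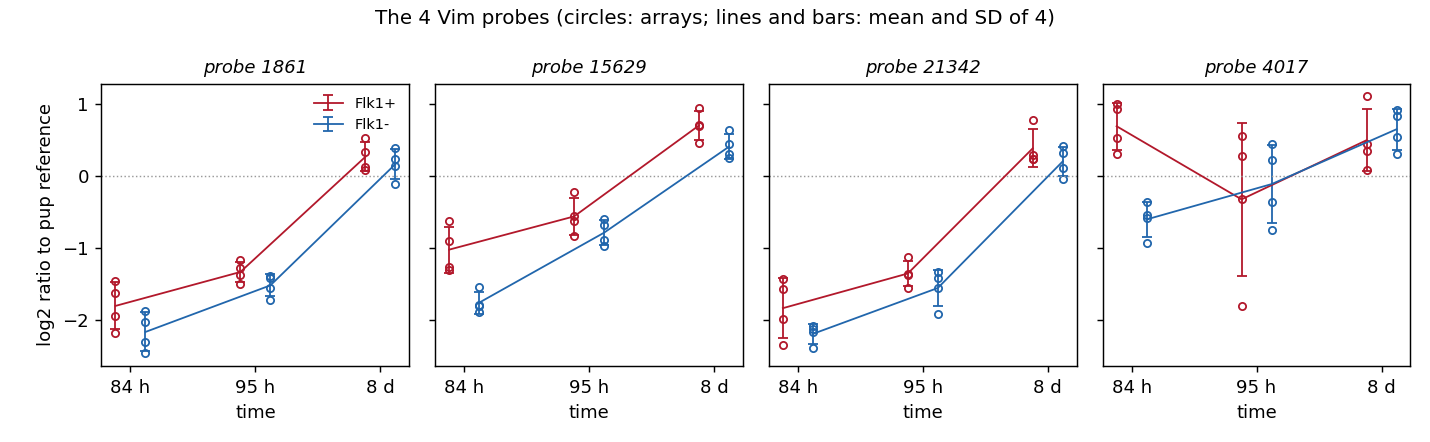
Log2 ratio to pup RNA (vertical axis) at 84 h, 95 h and 8 d (horizontal axis) for the 4 Vim probes; circles are arrays, lines and bars the mean and SD of 4, red Flk1+ and blue Flk1-. Probe 4017 is the one at 0.69 in Flk1+ cells at 84 h, where the other probes lie between -1.84 and -1.02.

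Pdgfrb, the receptor through which pericytes are recruited, was higher in Flk1+ cells at 84 h. Its Flk1+ arrays read -1.67, -1.72, -1.74 and -1.05 at 84 h, -1.83, -1.39, -1.32 and -1.34 at 95 h, and 1.17, 0.84, 1.16 and 0.91 at 8 d. Its Flk1- arrays read -2.63, -2.49, -2.63 and -2.16, then -2.31, -1.89, -1.95 and -2.09, and then 0.88, 0.78, 0.80 and 0.34. At 84 h and 95 h the Flk1+ arrays lay above the Flk1- arrays, and at 8 d the sorts overlapped. The difference was 0.93 (SE 0.16, adjusted p = 0.000946) at 84 h, kept under all 36 alternatives. At 95 h it was 0.59 and not called (adjusted p = 0.0714), but with the replicate number as a block, which pairs the sorts at that time, the same difference had an adjusted p = 0.00339. It was also called without Flk1+ array 1 of 95 h (0.71, adjusted p = 0.0299), without Flk1+ array 4 of 84 h (0.59, adjusted p = 0.0254), with the 3 outlying arrays of 84 h left out (adjusted p = 0.0125) and after quantile normalization (0.72, adjusted p = 0.043). At 8 d it was 0.32 (adjusted p = 1, and 0.0131 with array weights), with the Flk1+ array higher in 4 of 4 pairs, by 0.064 to 0.56, and an adjusted p = 0.203 with the replicate block. Between 84 h and 95 h the gap between the sorts moved by -0.34, with no call (adjusted p = 0.451). The rise from 95 h was 2.49 (5.61-fold) in Flk1+ and 2.76 (6.79-fold) in Flk1- cells, and the steps from 84 h to 95 h were 0.08 (adjusted p = 0.77) and 0.42 (adjusted p = 0.228).

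Pmp22 was the member that separated the sorts most. Its Flk1+ arrays read -0.35, -1.92, -0.59 and -1.81 at 84 h, 0.08, -0.59, 0.50 and 0.00 at 95 h, and 1.64, 1.40, 1.45 and 1.19 at 8 d. Its Flk1- arrays read -2.56, -2.62, -2.60 and -2.29, then -1.41, -2.03, -1.38 and -1.48, and then 1.52, 1.75, 1.64 and 1.38. All Flk1+ arrays lay above all Flk1- arrays at 84 h and at 95 h, and at 8 d the sorts overlapped. Flk1+ minus Flk1- was 1.35 (SE 0.28, adjusted p = 0.0034) at 84 h, 1.57 (adjusted p = 0.00186) at 95 h and -0.16 (adjusted p = 1) at 8 d. The 2 low Flk1+ arrays at 84 h, 2 and 4, are among the 3 that stood apart, and without those 3 the difference at 84 h was 2.13 (adjusted p = 1.08e-05), while a fit of the 84 h arrays alone gave an adjusted p = 0.104. The rise from 95 h was 1.42 (2.68-fold) in Flk1+ and 3.15 (8.88-fold) in Flk1- cells, where it ranked 10 of all features. The sort difference thus changed by -1.73 from 95 h to 8 d, a value built from the rises that chose the gene and therefore not tested.

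Within Flk1+ cells Pmp22 was 1.16 higher at 95 h than at 84 h (adjusted p = 0.00909), but the arrays overlapped, and without the 3 arrays that stood apart the step was 0.46 (adjusted p = 0.227). Within Flk1- cells the step was 0.94 with no overlap and no call (adjusted p = 0.0837), and it was called without the 3 arrays (1.02, adjusted p = 0.00822) and without Flk1+ array 1 or 2 of 84 h (adjusted p = 0.0482 and 0.0454). In Flk1+ cells 55% of the increase from 84 h came after 95 h and in Flk1- cells 77%. For the other 5 genes these shares ran from 85.6% to 97.5% and from 66.3% to 95.8%.

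Over the members, the sort at 84 h gave 3 of 6 called higher in Flk1+ cells (Pdgfrb, Vim and Pmp22) and 0 lower, where 5.3% of all features were called higher and 13.5% in either direction. For the same 3 all Flk1+ arrays lay above all Flk1- arrays, as they did for 8.76% of all features. At 95 h 1 of 6 was called higher, Pmp22, against 0.659% of features higher and 2.03% in either direction, and Pdgfrb and Pmp22 were higher with no overlap, against 2.14%. At 8 d 0 of 6 was called in the limma fit, where 0.373% of features were, 0 had no overlap (15.9% of features), and array weights called Pdgfrb (0.38, adjusted p = 0.0131) and Tgfbi (0.49, adjusted p = 0.0445). The median Flk1+ minus Flk1- difference of the 6 was 0.45, 0.13 and 0.074 at the 3 times, beside 0.0041, -0.0035 and 0.0067 over all features. Arranged by group mean, all 6 genes were lowest in Flk1- cells at 84 h, Postn, Pdgfrb, Tgfbi and Vim were highest in Flk1+ cells at 8 d, and Acta2 and Pmp22 in Flk1- cells at 8 d. For each member the 8 d groups overlapped each other and stood clear of the 4 earlier groups.

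**Figure D3:**
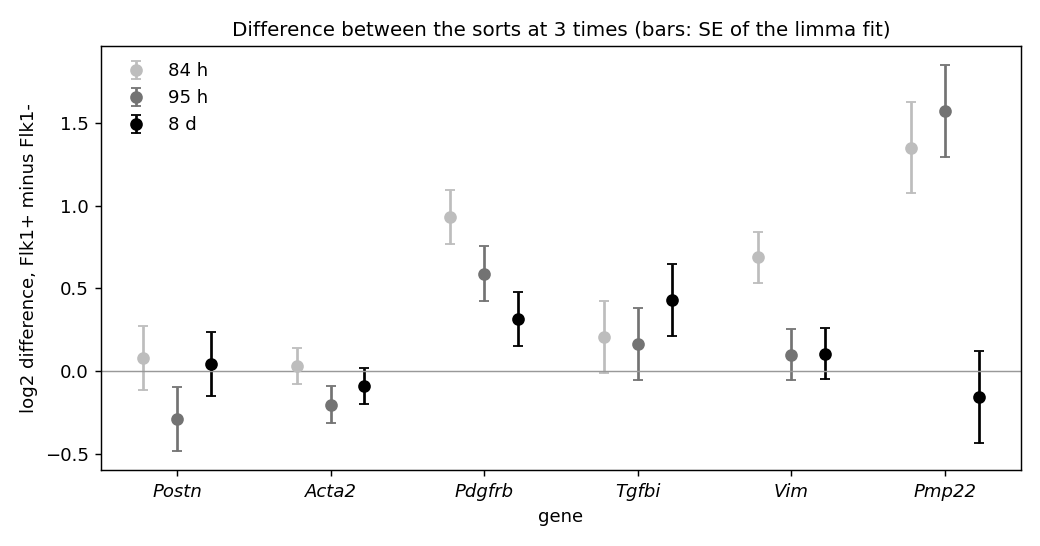
Flk1+ minus Flk1- difference in log2 (vertical axis) for each gene (horizontal axis) at 84 h, 95 h and 8 d, from light grey to black; bars are SEs of the limma fit over 24 arrays. Pmp22 lies at 1.35 and 1.57 before 8 d and at -0.16 at 8 d, while Postn and Acta2 stay between -0.29 and 0.08.

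Between 84 h and 95 h, a step that shares the 95 h arrays with the rise that chose the genes, 3 of 6 were called higher in Flk1+ cells (Postn, Acta2 and Pmp22), where 11.2% of all features were called higher and 19.8% in either direction. In Flk1- cells 3 of 6 were called higher (Postn, Acta2 and Vim), against 1.06% and 1.64%. Higher without overlap were 2 of 6 in Flk1+ (Postn and Acta2; 7.04% of features) and 4 of 6 in Flk1- cells (Postn, Acta2, Vim and Pmp22; 5.5%). The median step of the 6 was 0.35 in Flk1+ and 0.76 in Flk1- cells, beside -0.0047 and 0.0082 over all features. The difference between these steps was called for 0 of the 6 (limma adjusted p 0.278 to 0.951), where 1 of 17440 features, 0.00573%, was called. Vim had the largest, at -0.59 (SE 0.22), and a gap that was not called does not show that the sorts moved alike.

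Some of the other contractile and pericyte genes rose with Acta2 and others did not. Of 20 measured genes of that list, which leaves the members out, 7 rose and 2 fell from 95 h to 8 d in Flk1+ cells, and 6 rose and 1 fell in Flk1- cells. Of all features 12.8% rose and 9.31% fell in Flk1+ and 9.88% rose and 7.78% fell in Flk1- cells. The list's median change was 0.11 and 0.16, beside -0.012 and -0.034 over all features. Cald1, the actin-binding caldesmon, rose by 1.67 (SE 0.15, adjusted p = 2.76e-08) and 1.66, though its probes did not all pass on their own. Itga8, an integrin of smooth muscle and mesenchyme, rose by 1.44 (adjusted p = 2.12e-05) and 1.62, and Myl9, a myosin light chain, by 1.07 and 1.24. Mcam, a surface marker of pericytes and endothelium, rose by 0.94 (adjusted p = 4.48e-05) and 0.78 (adjusted p = 4e-04), and Cnn2, a calponin made more widely than Cnn1, by 1.18 and 1.11. Tpm2, a tropomyosin of muscle, rose by 0.68 (adjusted p = 0.00418, and 0.399 after quantile normalization) and 1.10 (adjusted p = 3.83e-05). Kcnj8, a potassium channel of pericytes, rose by 1.43 (adjusted p = 0.0121) in Flk1+ cells. The more restricted smooth muscle genes gave other values: Myh11, the smooth muscle myosin heavy chain, changed by -0.16 (adjusted p = 0.727) and -0.22 (adjusted p = 0.624), and Actg2, the enteric actin, by -0.32 (adjusted p = 0.114) and 0.07 (adjusted p = 0.782). Calponin, Cnn1, fell by 0.89 in Flk1- cells (adjusted p = 6.32e-05), and Rgs5, a pericyte marker, fell by 0.34 in Flk1+ cells (adjusted p = 0.0208, but 0.0628 without Flk1+ array 3 of 8 d and 0.0874 without Flk1+ array 3 of 95 h). Desmin, Des, was at -0.59 (adjusted p = 0.115) and -0.19 (adjusted p = 0.683), and 5 of 36 alternatives called it lower in Flk1+ cells, among them the fit without Flk1+ array 2 of 84 h (adjusted p = 0.00146) and quantile normalization (-1.08, adjusted p = 0.000817). Srf and Myocd, which encode the factors that drive contractile genes, changed by -0.023 and 0.075 in Flk1+ cells with no call (adjusted p = 0.893 and 0.765). Tpm1, also a tropomyosin, was at -0.44 in Flk1+ cells (limma adjusted p = 0.00712, kept under 35 of 36 alternatives) and at -0.19 in Flk1- cells (adjusted p = 0.262). The list was thus split, with Cald1, Itga8, Myl9, Cnn2, Mcam and Tpm2 called higher in both sorts and Kcnj8 in Flk1+ cells alone. Called higher in neither were Myh11, Cnn1, Actg2, Des, Rgs5, Tpm1, Smtn, Mylk, Myocd, Srf, Anpep, Notch3 and Angpt1.

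Of 23 mesenchymal matrix genes measured besides Postn and Tgfbi, 11 rose and 0 fell in Flk1+ cells, and 13 rose and 1 fell in Flk1- cells, with medians of 0.45 and 1.06. Decorin, Dcn, a collagen-binding proteoglycan, rose by 2.99 (SE 0.22, adjusted p = 2.2e-09) and 3.13 (adjusted p = 1.43e-09). Ccn2, a matrix protein induced by TGF-beta, rose by 2.81 (adjusted p = 3.92e-06) and 2.02 (adjusted p = 0.000258), and Sparc, which binds collagen, by 1.84 and 1.56. Chains of fibrillar collagens split: Col5a1 rose by 1.29 and 1.50 and Col1a2 by 0.94 and 1.08, while Col1a1 changed by -0.034 (adjusted p = 0.876) and 0.053 (adjusted p = 0.817). Mgp, which blocks calcification, was at -0.49 in Flk1- cells (adjusted p = 0.0442), a call lost under 17 of 36 alternatives, among them each Flk1- array of 8 d left out (adjusted p 0.0577 to 0.14). Among them, too, was the replicate block (adjusted p = 0.0566), though between times the numbers do not pair the samples. At 84 h Fn1 (fibronectin) and Fbln2 (fibulin) were higher in Flk1+ cells, by 1.36 (adjusted p = 2.92e-06) and 1.25 (adjusted p = 0.000159), and Ccn2 was lower there, at -1.27 (adjusted p = 0.0233) at 84 h and -1.69 (adjusted p = 0.00853) at 95 h. The Ccn2 call at 84 h was lost under 9 of 36 alternatives, and the Fn1 difference was 0.77 (adjusted p = 0.0935) with its probe of largest spread.

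**Figure D4:**
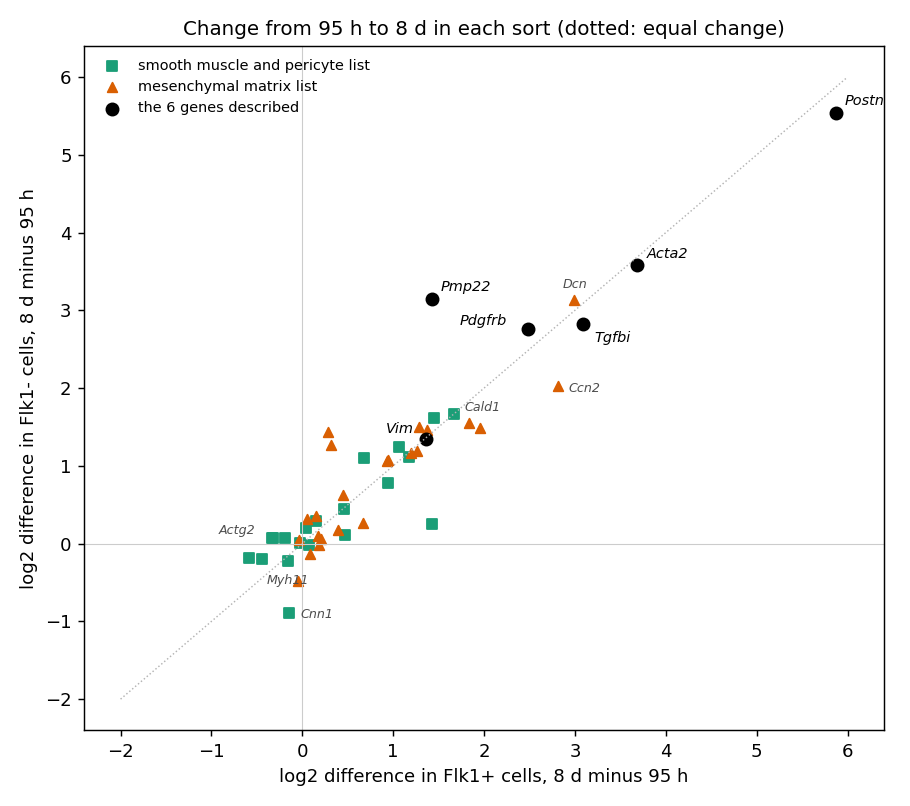
Log2 difference between 8 d and 95 h in Flk1+ cells (horizontal axis) and in Flk1- cells (vertical axis) for the 6 genes (black) and the measured genes of the smooth muscle and pericyte list (green squares) and the mesenchymal matrix list (orange triangles); the dotted line marks equal change. Pmp22 lies farthest from the line, at 1.42 and 3.15, and Myh11 and Cnn1 lie below 0 in both sorts while Acta2 is at 3.69 and 3.58.

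Of the ligands and receptors around Pdgfrb, 3 genes were measured. Pdgfc rose by 1.21 in Flk1+ (SE 0.15, adjusted p = 3.21e-06) and 1.20 in Flk1- cells (adjusted p = 4.66e-06). Pdgfb, the ligand that recruits pericytes from endothelium, changed by -0.099 (adjusted p = 0.594) and -0.21 (adjusted p = 0.242). Pdgfa fell by 0.86 in Flk1- cells (adjusted p = 0.0353, lost under 6 of 36 alternatives) and was at -0.15 in Flk1+ cells (adjusted p = 0.762). Of the 3 genes measured, from 5 listed, Pdgfc was thus the 1 called higher at 8 d in both sorts. Of all features, 12.8% in Flk1+ and 9.88% in Flk1- cells were called higher. Pdgfrb was chosen by its rise and adds nothing to this count.

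Of 13 TGF-beta pathway genes, 7 rose and 1 fell in Flk1+ cells, and 5 rose and 0 fell in Flk1- cells, with medians of 0.52 and 0.49. The Flk1- count of 5 became 8 to 10 under 7 of 36 alternatives. In the Flk1+ count, the call of Tgif1 (0.54, limma adjusted p = 0.0395) was lost under 10 of 36. Tgfb2, a ligand, rose by 1.32 (SE 0.14, adjusted p = 5.88e-07) and 1.64 (adjusted p = 3.03e-08), and its coreceptor Tgfbr3 by 1.72 (adjusted p = 3.5e-09) and 1.19 (adjusted p = 1.06e-06), though not every Tgfbr3 probe was called on its own in Flk1- cells. Endoglin, Eng, a coreceptor of endothelium, rose by 1.07 in Flk1+ cells (adjusted p = 0.00112) and was at -0.18 in Flk1- cells (adjusted p = 0.631), and it was the gene of this list that separated the sorts at 8 d (1.39, adjusted p = 0.00261). Tgfb1 fell by 0.54 in Flk1+ cells (adjusted p = 0.00675). At 84 h Tgfb2 was higher in Flk1+ cells by 0.78 (adjusted p = 0.00135), the same direction as Pdgfrb, Vim and Pmp22. Skil, of the same list, went the other way with a larger difference of -1.48 (limma adjusted p = 0.00231), a call kept under 35 of 36 alternatives. Of 4 integrin subunits that bind periostin or TGFBI, Itgb1 rose by 0.89 (adjusted p = 0.0084) and 0.90 (adjusted p = 0.00903) and Itgb5 by 0.46 in Flk1+ cells (adjusted p = 0.0121, and 0.0551 without Flk1+ array 1 of 8 d), while Itgav was at 0.20 in each sort (adjusted p = 0.212 and 0.231).

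Of 11 other intermediate filament and actin genes, 3 rose and 0 fell in Flk1+ cells, and 3 rose and 1 fell in Flk1- cells, with medians of 0.060 and 0.067. Krt19, a keratin of simple epithelium, rose by 1.20 (adjusted p = 0.000837) and 0.83 (adjusted p = 0.0175, and 0.0614 and 0.0615 without Flk1- array 3 of 8 d or array 2 of 95 h). Acta1, the skeletal actin, was at -0.64 in Flk1- cells (adjusted p = 0.0227), a call lost without Flk1- array 1, 3 or 4 of 8 d or array 1 or 3 of 95 h (adjusted p 0.0515 to 0.0889). With the replicate block the adjusted p was 0.0542, though between times the numbers do not pair the samples. Actg1, a cytoplasmic actin, was at -0.11 (adjusted p = 0.48) and -0.071 (adjusted p = 0.684), and Nes, a neural progenitor filament, at -0.046 (adjusted p = 0.847) and -0.21 (adjusted p = 0.31).

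Of 8 mesenchymal transcription factors, 3 rose and 1 fell in Flk1+ cells, and 2 rose and 0 fell in Flk1- cells. Snai2 rose by 3.58 (SE 0.21, adjusted p = 4.76e-11) and 3.46 (adjusted p = 8.55e-11), and Tcf21, a factor of visceral mesenchyme, by 1.26 and 1.14. Zeb2 was the other gene called higher in Flk1+ cells, at 0.32 (limma adjusted p = 0.0494), a call lost under 24 of 36 alternatives. Snai1, the relative of Snai2 that acts at the onset of mesoderm, was 1.56 higher in Flk1+ cells at 84 h (adjusted p = 2.08e-05) and fell by 1.35 in Flk1+ cells from 95 h to 8 d (adjusted p = 3.27e-05). Twist1 was at -0.20 (adjusted p = 0.582) and 0.60 (adjusted p = 0.0636, and 0.0207 without Flk1+ array 4 of 84 h). Of 3 measured relatives of Pmp22, Emp3 rose by 2.87 (SE 0.22, adjusted p = 2.37e-09) and 2.94 (adjusted p = 2.25e-09), Emp2 by 1.90 and 1.39, and Emp1 was at 0.25 (adjusted p = 0.117) and 0.070 (adjusted p = 0.726). The rises of Emp3 lay close together in the sorts, where those of Pmp22 were 1.42 and 3.15.

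The 5 genes most like each member by Pearson correlation over the 24 arrays, among 8967 named genes, were found with no test, and the points share arrays and the step between times. For Postn they were Fhl2 (0.982), Fstl1, Man1a, Parva and Col4a5 (0.978), and for Acta2 Fstl1 (0.986), Parva, Cdc42ep3, Fhl2 and Pcolce (0.981). For Tgfbi they were Man1a (0.975), Cd248, Dcn, Tshz1 and Pcolce (0.973). Postn and Acta2 thus shared Fstl1, Parva and Fhl2, and Tgfbi shared Man1a with Postn and Pcolce with Acta2. For Pdgfrb they were Emp3 (0.99), Tshz1, Cdkn1c, Oaf and Cdc42ep1 (0.98), and for Vim Fstl1 (0.959), Cdkn1c, Zadh2, Nrp1 and Oaf (0.952). For Pmp22 they were Nrp1 (0.968), Slc38a4, Tgfb2, Stard8 and Cdh11 (0.946). Nrp1, a coreceptor for VEGF, moved as Pmp22 did, with group means of -1.09, -0.61 and 1.08 in Flk1+ and -2.29, -1.65 and 0.80 in Flk1- cells. The names depended on the measure. By Spearman correlation 0 of 5 stayed among the 5 for Postn and Tgfbi, 1 for Acta2, 2 for Vim and 3 for Pdgfrb and Pmp22. For Tgfbi, Cd248 then ranked 1409 (0.575), Pcolce 784 (0.658) and Dcn 323 (0.731), and for Postn, Man1a ranked 272 (0.817).

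Markers of other cells moved beside the members, and their part in the results was not tested. Summed as the mean over a list, 9 of 11 pluripotency genes had medians of 1.26, 0.95 and 0.10 in Flk1+ and 2.26, 1.87 and 0.50 in Flk1- cells at 84 h, 95 h and 8 d, falling while the members rose and lower in Flk1+ cells, where Pdgfrb, Vim and Pmp22 were higher at 84 h. The endothelial list (8 of 15 measured) ran from -0.23 to 0.13 over the Flk1+ arrays at 8 d and from -0.91 to -0.86 over the Flk1- arrays. It holds Kdr, the sort marker, and its other 7 genes ran from -0.47 to -0.071 and from -0.997 to -0.93, while the members overlapped between these sorts. The cardiac list (12 of 14) had medians of -1.56 in Flk1+ and -1.34 in Flk1- cells at 8 d, and the skeletal list (5 of 9) of -1.59 and -1.54. The epithelial and endoderm list (10 of 12) had medians of -0.81 and 0.067 at 8 d, the neuronal list (7 of 10) of -1.58 and -1.56, and the blood list (6 of 12) of 0.34 and 0.56. Of the Schwann and glial list, cells in which Pmp22 is high, 1 of 8 genes was measured, Erbb3, with medians of -0.79 and -0.67 at 8 d. A ratio to pup RNA cannot show that a marker was at 0.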

How the data were processed

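RNA of Flk1+ and Flk1- cells was measured on 24 arrays. The deposited log2 values, 20280 probes per array, came as the authors' processed table. Image analysis, background correction, normalization, log base and direction are not given in the sources used here. Values were read as the log of Cy5 over Cy3, because Kdr was higher in Flk1+ cells and pluripotency genes lay above the pup reference. Base 2 was assumed, and every fold given here rests on it. Each array's mean was 0 as deposited, and medians (0.046 to 0.197) were then set to 0. Each array's SD was 0.562 to 0.634 at 8 d, 0.709 to 0.785 at 95 h and 0.703 to 1.01 at 84 h. The main fit did not correct for the smaller spread at 8 d, and the number of arrays limits the precision. Probes were named by the platform annotation (11813 with 1 gene, 559 with several, 7908 not listed; the last 2 kinds stayed unnamed), and the Entrez identifiers of 11782 were found in the RefSeq gene table, with 0 symbols changed. Probes of a gene were averaged, which left 17440 features, 8973 of them named.

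Tests used limma 3.58.1 in R 4.3.3 (lmFit and eBayes, 6 group means, 24 arrays, 18 residual degrees of freedom), adjusted by Benjamini-Hochberg over 17440 features and called at an adjusted p under 0.05; the code was tested on simulated data. Rises from 95 h to 8 d are from the same fit and untested for the 6 members. The members, lists and alternatives were chosen with earlier results of these data known. Named were the members with all their probes, Kdr, some of the called genes of each list, other list genes with their values, and the 5 genes most like a member. The named genes are not each list's full set of largest changes. Among called genes left out were Thbs1 (1.96 in Flk1+ cells from 95 h to 8 d), Lmna (0.71 in Flk1- cells) and Angpt1 (-0.88 between sorts at 84 h). Figures used Python 3.11.15 with matplotlib 3.10.9.

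Replicate numbers were checked for pairing by the correlation of deviations from group means. Between the sorts every same-numbered pair was over 0.1 at 95 h (0.107 to 0.417) and 8 d (0.146 to 0.437) but not at 84 h (-0.127 to 0.526), and between times none was over 0.1 (highest 0.0708). The pairing at 95 h and 8 d comes from this correlation, not from the labels. Promoters are RefSeq's for GRCm38.p6. A planned comparison of protein sequences was not made here.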

Additional observations from a re-analysis of the deposited data

Results flagged for a closer look

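Of 60 groups of 4 arrays examined, 7 had an array far from the other 3 by Dixon's ratio, where chance gives about 1 in 20. Pdgfrb read -1.05 on Flk1+ array 4 at 84 h, with the others at -1.74 to -1.67, and -1.83 on Flk1+ array 1 at 95 h, with the others at -1.39 to -1.32. Without that 95 h array the sort difference of Pdgfrb at 95 h was 0.71 (limma adjusted p = 0.0299). Tgfbi read 1.41 on Flk1+ array 1 at 8 d, with the others at 0.66 to 0.74. Vim read -1.37 on Flk1+ array 2 at 84 h (others -0.91 to -0.82) and -1.32 on Flk1+ array 2 at 95 h (others -0.77 to -0.73); at 95 h its probe 4017 read -1.81 on that array. Vim probe 21342 read 0.77 on Flk1+ array 4 at 8 d, with the others at 0.23 to 0.29. Pmp22 read -2.03 on Flk1- array 2 at 95 h, with the others at -1.48 to -1.38.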

How the results depend on the processing

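Across 35 or 36 alternatives for each value (35 for genes outside the filter on features of small SD), no called result changed direction. The members' median rise was 2.79 in Flk1+ cells (range 2.68 to 2.87) and 2.99 in Flk1- cells (range 2.91 to 3.13). Of 3 members called between sorts at 84 h, 1 stayed with only the compared arrays. At 95 h (1) quantile normalization, the replicate block and the fit without the 3 arrays that stood apart each called 2, and leaving out single arrays 1 to 2. At 8 d (0) array weights called 2. For 95 h against 84 h in Flk1+ cells (3) quantile normalization, array weights and leaving out the 3 arrays each called 1, and only the compared arrays 0. In Flk1- cells (3) array weights and leaving out the 3 arrays called 5 each, and leaving out single arrays 2 to 4. Features called moved more: 347 to 4550 at 84 h (2352), 135 to 698 at 95 h (354), 24 to 2332 at 8 d (65), 0 to 5358 (3451) and 51 to 2156 (286) for the early step in Flk1+ and Flk1-, 0 to 46 for its interaction (1), and 2214 to 6059 (3861) and 1775 to 6692 (3080) for the rises. List counts between sorts at 84 h were the least stable, 0 to 8 for smooth muscle and pericyte (4), 2 to 6 for matrix (4), 1 to 8 for TGF-beta (4) and 0 to 5 for filaments and actins (4).

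With the replicate number as a block, 4386 features were called between sorts at 84 h, 545 at 95 h, 139 at 8 d, 178 for the early step in Flk1- cells and 5 for the interaction. Zeb2 and Tgif1 aside, the block changed these calls of genes named in the text and no others: Pdgfrb at 95 h, Acta1 and Mgp in Flk1- cells, and Tgfb1 and Cnn1 at 95 h (adjusted p = 0.0608 and 0.0688). At 84 h pairs 1, 3 and 4 correlated at 0.34, 0.313 and 0.526 but pair 2 at -0.127, so pairing at that time was not settled. Flk1+ array 2 and array 4 of both sorts are those that stood apart. Between times the numbers do not pair the samples. For steps between times the block tied arrays of the same number and sort, so its results there, those of Mgp and Acta1 among them, rest on no pairing. Missing intensities limit the lowest levels, those of Postn above all: a level at background would make its fold a lower bound.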
